A study of Mus musculus with 18 samples.

Results

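The genes described are a list of 35 genes of glycolysis and of the response to low oxygen, measured in mouse myeloid cells that carry, or lack, an active BRAFV600E allele. Members were taken by gene symbol, with the probe set of the highest mean signal where a gene had more than 1. Of the 35, 32 matched a probe set that names a single gene, and all 32 were among the 15365 genes tested, out of 19752 genes on the arrays. Ero1l was matched under its current symbol, Ero1a. Gpi1, Gapdh and Eno1 had no probe set of their own in the gene table and were not analysed here. Pgk1, Pgam1, Bnip3 and Bnip3l had 2 probe sets each, and the other 28 had 1.

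RNA from 18 samples was hybridised to 1-colour Affymetrix gene arrays, 9 from BRAF and 9 from WT mice. BRAF mice carried the BRAFV600E(CA-flox) allele together with CD11c-Cre, a recombinase driven by the promoter of the integrin CD11c, so that the allele is switched on in dendritic cells and other cells that express CD11c. WT mice were littermates that carried the same BRAFV600E(CA-flox) allele without Cre, so both genotypes hold the allele and only BRAF mice can recombine it. The populations were bone marrow derived dendritic cells (BMDC, untreated cultures sorted as live CD11c+CD11b+ cells from marrow of mice aged 5 weeks; 3 arrays per genotype) and, from unmanipulated mice aged 14 weeks, CD11b+ cells of the liver and CD11b+ and CD103+ cells of the lung (2 arrays each per genotype). The labels number the replicates without naming the animal or culture behind each, and the p-values therefore reflect only how far these samples vary, which may be technical.

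Glycolysis splits glucose into pyruvate and yields ATP without oxygen. Cells take glucose up through GLUT transporters, trap it by hexokinase, and commit it at phosphofructokinase, which the PFKFB enzymes control through fructose-2,6-bisphosphate; lactate dehydrogenase and the lactate exporter MCT4 dispose of the product. When oxygen is low, prolyl hydroxylases such as EGLN1 and EGLN3 stop marking HIF-1α for destruction, and HIF-1α pairs with ARNT at DNA sites with the core ACGTG or GCGTG to induce most of these enzymes, VEGF-A, BNIP3 and EGLN3 itself. Dendritic cells are known to raise glycolysis when activated or cultured, and HIF-1α can also be raised by growth factor signalling in normal oxygen.

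The HIF core was looked for in promoter windows. The reason was that Egln3 and the listed hypoxia targets Vegfa, Ankrd37, Bnip3 and Ero1a had the smallest p by genotype in BMDC. The windows were the 250 bases before each annotated start (RefSeq, GRCm38.p6), and the letters ACGTG and GCGTG were searched on both strands, so that overlapping matches count separately. RefSeq windows were held for 28 of the 32 genes, 39 windows in all, and not for Slc2a3, Epas1, Bnip3l or Ndrg1. At least 1 match stood in 31 of the 39 windows (79.5%), against 38.6% of the 32851 windows of all genes, and in a window of 27 of the 28 genes (96.4%), against 41.5% of 27025 genes. ACGTG alone was in 53.8% of the member windows and in 16.6% of all windows. The member windows were also richer in G and C (median 62.8%, against 52.4% of all windows), and the part of base composition in these shares was not tested. The members were listed as glycolysis and hypoxia genes, many of them known to be induced by HIF. Their shares could be high by that choice alone, and they do not bear on which genes differ by genotype. A match is a description of the letters and does not show binding. Tpi1 had no match in its window. Of the 2 Vegfa windows, 1 had no match and the other had 2. These 5 windows are shown because Egln3, Bnip3 and Ankrd37 stand out in the results that follow, and Ldha and Pgk1 are classic HIF targets among the glycolytic genes. Each runs 5' to 3' in the direction of its gene, and capitals mark the matches:
Egln3, chr12:54203875-54204124, minus strand: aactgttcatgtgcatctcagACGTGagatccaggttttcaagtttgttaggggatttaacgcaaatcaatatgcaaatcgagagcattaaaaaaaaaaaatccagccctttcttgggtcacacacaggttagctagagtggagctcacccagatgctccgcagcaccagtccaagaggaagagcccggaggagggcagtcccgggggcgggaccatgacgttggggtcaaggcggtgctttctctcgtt
Bnip3, chr7:138909507-138909756, minus strand: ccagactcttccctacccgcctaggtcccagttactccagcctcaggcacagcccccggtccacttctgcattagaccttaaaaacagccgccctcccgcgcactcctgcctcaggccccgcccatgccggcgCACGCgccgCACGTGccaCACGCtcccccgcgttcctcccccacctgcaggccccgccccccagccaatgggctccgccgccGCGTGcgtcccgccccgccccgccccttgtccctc
Ankrd37, chr8:45999851-46000100, minus strand: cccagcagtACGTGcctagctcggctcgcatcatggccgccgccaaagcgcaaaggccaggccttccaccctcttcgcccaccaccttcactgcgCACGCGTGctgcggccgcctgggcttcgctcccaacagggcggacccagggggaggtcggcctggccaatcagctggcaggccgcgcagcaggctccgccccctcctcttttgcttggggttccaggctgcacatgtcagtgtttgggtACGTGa
Ldha, chr7:46845554-46845803, plus strand: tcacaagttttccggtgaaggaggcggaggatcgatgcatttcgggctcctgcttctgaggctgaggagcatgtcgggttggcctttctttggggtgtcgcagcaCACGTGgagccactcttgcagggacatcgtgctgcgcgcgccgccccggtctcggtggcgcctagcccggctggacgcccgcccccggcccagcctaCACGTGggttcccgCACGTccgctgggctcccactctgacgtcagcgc
Pgk1, chrX:106186850-106187099, plus strand: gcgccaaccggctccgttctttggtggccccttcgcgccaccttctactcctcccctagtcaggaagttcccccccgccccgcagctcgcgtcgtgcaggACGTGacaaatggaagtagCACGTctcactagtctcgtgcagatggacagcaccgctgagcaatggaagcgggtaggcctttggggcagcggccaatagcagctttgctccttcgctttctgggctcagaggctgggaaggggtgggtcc
Positions count back from the start site and give the first base of a match. Egln3 held 1 match, at position -229, and Ankrd37 held 4, the nearest at position -6. Bnip3 held 5 matches between positions -117 and -35. Ldha also held 5, in 3 separate places, since the palindrome CACGTG counts on both strands.

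Arrays were comparable in their medians (93.7 to 113.2 on the linear scale), but 2 of the 18 had a narrow spread. Their interquartile ranges of log2 signal were 1.90 (BRAF BMDC, replicate 2) and 1.92 (WT liver CD11b+, replicate 3), and those of the remaining 16 ran from 2.41 to 2.99. The sorted populations carried their markers. The mean log2 signal of 5 markers of CD103 dendritic cells was 11.14 to 11.67 on lung CD103+ arrays and 7.19 to 8.39 on all others, and that of 5 CD11b dendritic cell markers was 7.86 to 8.47 on lung CD103+ arrays and 9.51 to 11.02 elsewhere. All signals of a member refer to log2 intensity, and levels of different genes are not compared. Of the 32 members, 29 lay above the 30th percentile of the array on all 18 arrays. The exceptions were Egln3 (13 arrays), Pdk1 (17) and Slc2a3 (17). In these bulk samples, fewer cells of a type and less RNA per cell cannot be told apart.

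In BMDC, the oxygen sensor Egln3 was higher in BRAF than in WT cells, and it was the member whose change passed the test. Its log2 signal was 11.34, 9.93 and 10.61 in BRAF BMDC and 8.73, 8.83 and 8.86 in WT BMDC. Every BRAF array was above every WT array, and the WT arrays lay close together. Egln3 rose by 1.82 ± 0.27 (SE, log2), or 3.53-fold, with limma's adjusted p = 0.00692. That is 1 of 32 members called, beside 0.521% of all genes tested in this comparison. Its call held without BRAF BMDC replicate 2 (2.17, adjusted p = 0.000389) and was lost when only the 6 BMDC arrays were fitted (adjusted p = 0.104).

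The hypoxia targets outside glycolysis had positive differences in BRAF BMDC, 9 of 9, with a median log2 difference of 0.40, beside 0.00 over all genes tested, and none passed the test. With array weights, which counted BRAF replicate 2 least, 7 of the 9 passed, in a fit that called 10.8% of all genes. Vegfa, the angiogenic growth factor, had 9.74, 8.74 and 9.51 in BRAF BMDC and 8.05, 8.03 and 8.01 in WT BMDC. The genotypes did not overlap, and the difference was 1.30 ± 0.29 (adjusted p = 0.0691). Under quantile normalization, which called 0.586% of all genes, it was 1.52 and passed (adjusted p = 0.0189). Ankrd37, an ankyrin repeat protein induced by HIF, had 8.56, 8.26 and 8.53 in BRAF BMDC, against 7.32, 7.37 and 7.66 in WT BMDC, a difference of 1.00 ± 0.23 (adjusted p = 0.0837). Here too every BRAF array was above the WT arrays. Ero1a, the oxidase that drives disulfide formation in the endoplasmic reticulum, had 11.33, 9.97 and 11.48 in BRAF BMDC and 9.83, 10.22 and 9.86 in WT BMDC. Replicates 1 and 3 were above WT and replicate 2 was within it (0.96 ± 0.36, adjusted p = 0.582). Ndrg1, a stress-induced differentiation gene, had 10.98, 8.95 and 10.27 in BRAF BMDC and 9.64, 9.66 and 9.69 in WT BMDC. Here replicates 1 and 3 were above WT and replicate 2 was below it. Beside these values, all 14 proliferation genes had negative differences in BMDC (median -0.58), with a mean level of 8.79 to 9.66 in BRAF BMDC and 9.79 to 9.92 in WT BMDC. Of 6 markers of conventional dendritic cells, 4 had negative differences (median -0.53), and the chemokine receptor Ccr7 fell by 1.93 ± 0.28 (adjusted p = 0.00464). The part of these groups in the members' differences was not tested.

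Bnip3, a mitochondrial protein that promotes mitophagy, depended on the probe set. Its higher probe set gave 11.24, 11.62 and 10.67 in BRAF BMDC and 9.71, 9.79 and 10.27 in WT BMDC, a difference of 1.25 ± 0.31 (adjusted p = 0.118). Its lower probe set gave 10.41, 8.03 and 9.79 in BRAF BMDC and 8.46, 8.53 and 9.05 in WT BMDC, a difference of 0.73 (adjusted p = 0.737). On replicates 1 and 3 both probe sets put BRAF above WT, and on replicate 2 they pointed opposite ways. For Pgk1 and Pgam1, both probe sets had BRAF replicate 2 as the lowest of the 6 BMDC arrays.

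Of 10 glycolytic enzymes and regulators, 8 had negative differences in BRAF BMDC, with a median of -0.32, and none passed the test. Aldoc, an aldolase, had the largest of them, with 9.54, 7.32 and 10.51 in BRAF BMDC and 10.69, 10.86 and 10.02 in WT BMDC (-1.40 ± 0.60, adjusted p = 0.700). Ldha, which makes lactate from pyruvate, had 12.73, 10.72 and 12.88 in BRAF BMDC and 12.86, 13.09 and 12.61 in WT BMDC. The difference of Ldha was -0.74 ± 0.42 (adjusted p = 0.737). For both genes BRAF replicate 2 was the low array, and the other arrays of both genotypes overlapped. Pkm, the pyruvate kinase, differed by -0.32 ± 0.34, and the glucose transporter Slc2a1 by -0.13 ± 0.45. Hexokinase Hk2 differed by 0.05 ± 0.41. The 95% interval ran from -0.82 to 0.92 for Hk2 and from -1.09 to 0.83 for Slc2a1. Pfkfb3, which raises fructose-2,6-bisphosphate, was the enzyme whose genotypes did not overlap upward, with 8.01, 7.77 and 7.88 in BRAF BMDC and 7.55, 7.56 and 7.09 in WT BMDC (0.49 ± 0.20, adjusted p = 0.670).

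BRAF BMDC replicate 2, the array of narrow spread, was the lowest of the 6 BMDC arrays for 19 of the 32 members, among them 9 of the 10 glycolytic enzymes. Relative to the WT mean, its median over those 10 was -1.17, whereas the mean of replicates 1 and 3 had a median of 0.12. For the 9 hypoxia targets the corresponding medians were 0.24 on replicate 2 and 0.96 on replicates 1 and 3. The share of all genes for which replicate 2 was lowest, and its median over all genes, were not computed. Its low values are therefore not shown to be particular to these genes. Without replicate 2, 3 members passed the test and all were higher in BRAF, beside 0.67% of all genes in that fit. They were Egln3, Vegfa (1.59 ± 0.28, adjusted p = 0.0184) and Ero1a (1.44 ± 0.28, adjusted p = 0.0371). The members' median was 0.15 with all 6 arrays, and ran from -0.02 to 0.36 on leaving out each BMDC array in turn. Without replicate 2 it was 0.36, the top of that range, beside -0.01 over all genes tested. Of the 32 members, 29 then had a positive difference. Slc2a1 then differed by 0.63 and Pkm by 0.13, so that both turned positive without passing the test. Hk2 then differed by 0.48 and Ldha by -0.048, Hif1a by 0.27 and Epas1 by 0.10, also short of it. With all 6 arrays, 6 members had every BRAF array above every WT array (Ankrd37, Bnip3, Ddit4, Egln3, Pfkfb3 and Vegfa), beside 6.99% of all genes, and none had the reverse, beside 9.08%.

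**Figure D1:**
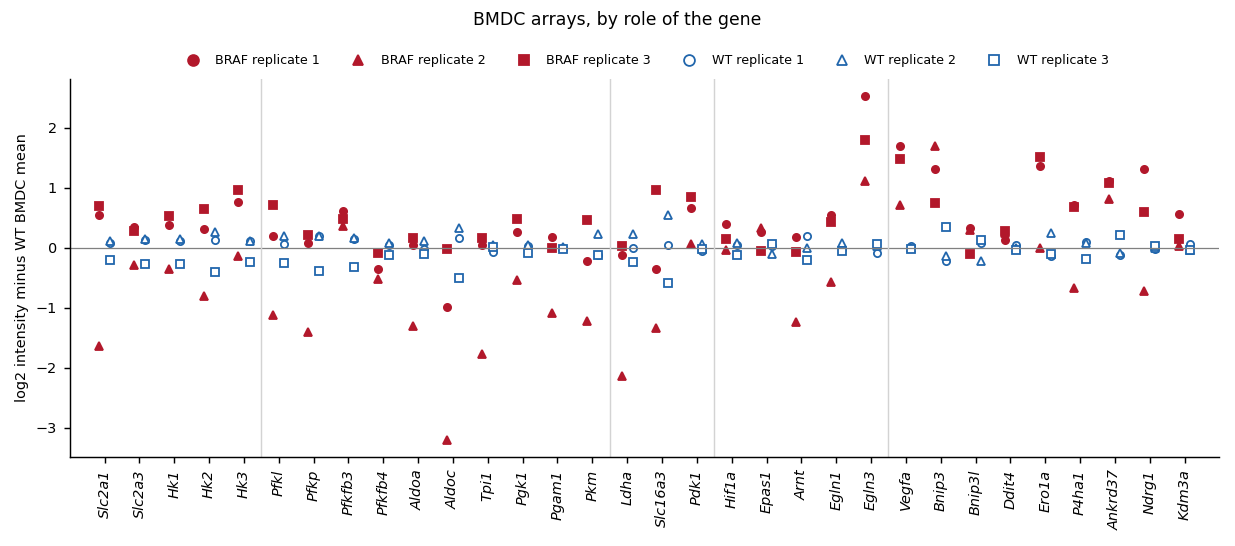
Signal of each of the 6 BMDC arrays minus the WT mean, log2 intensity, for the 32 genes ordered by role (hexose transport, glycolytic enzymes, pyruvate and lactate handling, oxygen sensing, hypoxia targets; grey lines divide them). BRAF points (filled) stand left of WT points (open). BRAF replicate 2 (triangles) lies lowest for most glycolytic enzymes, and all 3 BRAF points lie above WT for Egln3, Vegfa and Ankrd37.

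The HIF subunits themselves were not called by genotype in BMDC. Hif1a had 11.30, 10.86 and 11.06 in BRAF BMDC and 10.95, 10.99 and 10.78 in WT BMDC, a difference of 0.17 ± 0.20 with a 95% interval from -0.25 to 0.59. Epas1, which encodes HIF-2α, differed by 0.18 ± 0.36 and Arnt by -0.37 ± 0.28. Egln1, the main HIF prolyl hydroxylase, differed by 0.14 ± 0.25. None of these passed the test with the main settings. With array weights Egln1 passed (0.48, limma's adjusted p = 0.00398), in a fit that called 10.8% of all genes. Relative to the WT mean, BRAF replicate 2 lay at -1.23 for Arnt and -0.56 for Egln1. The mean of replicates 1 and 3 lay at 0.06 for Arnt and 0.49 for Egln1. HIF-1α is controlled largely at the protein level, which arrays do not measure.

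In liver CD11b+ cells none of the 32 members passed limma's test, beside 0.215% of all genes, while 9 had an unadjusted p under 0.05 (8 higher and 1 lower in BRAF), beside 14.1% of all genes. The members lay mostly on the positive side. Of the 32, 24 had a positive difference, with a median of 0.56, beside 0.08 over all genes. Every BRAF array was above every WT array for 19 members, beside 22.7% of all genes, and below for 3 (Aldoc, Epas1 and Pfkfb3), beside 15.8%. The shift was seen in the enzymes (8 of 10 positive, median 0.54), in pyruvate and lactate handling (3 of 3, median 1.01) and in the hypoxia targets (8 of 9, median 0.58), though not in hexose transport and phosphorylation (2 of 5, median -0.10).

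Egln3 again had the smallest p, with 7.80 and 7.76 in BRAF liver and 6.19 and 6.35 in WT liver, a difference of 1.51 ± 0.34 (adjusted p = 0.0915). The genotypes were far apart relative to their own spread. Under quantile normalization this difference was 1.64 and passed the test (adjusted p = 0.0270). Bnip3 had 9.68 and 8.50 in BRAF liver and 7.87 and 7.42 in WT liver (1.44 ± 0.38, adjusted p = 0.144). Its lower probe set gave 8.38 and 7.60 in BRAF liver and 7.82 and 7.41 in WT liver, a difference of 0.38 with overlapping genotypes (adjusted p = 0.736). Pdk1, the kinase that keeps pyruvate out of the mitochondrion, had 8.05 and 7.54 in BRAF liver and 7.06 and 5.81 in WT liver (1.35 ± 0.42, adjusted p = 0.200). The low WT value came from replicate 3, the array of narrow spread. Without that array the difference of Pdk1 was 0.73, and the median of the members was 0.41 with 23 of 32 positive, beside 0.07 over all genes. Ero1a had 8.89 and 9.56 in BRAF liver, against 8.38 and 7.32 in WT liver (1.37 ± 0.44, adjusted p = 0.211), and 0.84 without the narrow WT array. Egln1 had 7.79 and 8.13 in BRAF liver, against 7.11 and 6.77 in WT liver (1.02 ± 0.30, adjusted p = 0.194).

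Among the other members in liver, Ldha differed by 0.90 ± 0.52, Slc2a1 by 0.88 ± 0.55 and Pkm by 0.59 ± 0.42, none past the test. Pfkfb3 lay the other way, with 7.62 and 7.33 in BRAF liver and 8.33 and 7.83 in WT liver (-0.61 ± 0.24, adjusted p = 0.297). Hk2 (-0.10 ± 0.50), Epas1 (-0.53 ± 0.44), Hif1a (-0.01 ± 0.24) and Vegfa (0.39 ± 0.36) also did not pass. Without the narrow WT array, the difference was 0.39 for Slc2a1, 0.12 for Pkm, -0.73 for Hk2 and -0.25 for Hif1a. Other gene groups moved beside these genes in liver, without a gene of them being called. All 14 proliferation genes had positive differences (median 0.86), and their mean level was 7.69 and 10.28 in BRAF liver, replicates 2 and 3, and 8.31 and 7.94 in WT liver, replicates 1 and 3. The high value thus came from a single BRAF array. Members did not share a direction on it. Ldha, Pgk1 and Tpi1 were higher there than on the other BRAF array, whereas Bnip3, Pdk1, Vegfa and Ankrd37 were lower. Of 16 stress and immediate early genes, 15 had negative differences (median -0.49). All 3 monocyte markers were positive (median 1.21), with a mean level of 10.42 and 10.16 in BRAF liver and 9.63 and 9.12 in WT liver. Of 5 markers of CD103 dendritic cells, 4 were negative (median -0.99), 3 of them with an unadjusted p under 0.05, and all 3 T cell markers were negative (median -0.79). The part of these groups in the members' differences was not tested.

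**Figure D2:**
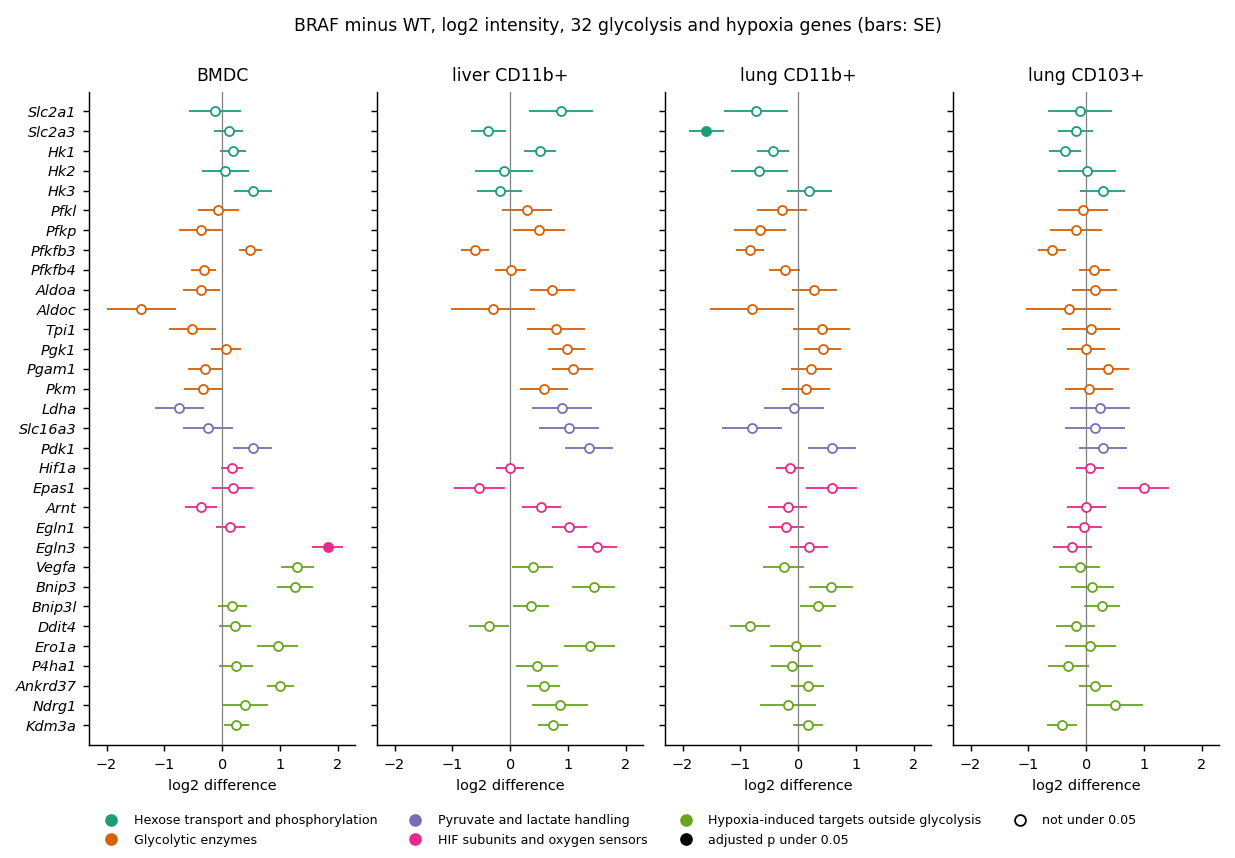
Log2 difference, BRAF minus WT, for each of the 32 genes (rows, coloured by role) in the 4 populations (panels), with SE bars. Filled points passed the test, Egln3 in BMDC and Slc2a3 in lung CD11b+ cells, and open points did not.

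In lung CD11b+ cells, Slc2a3, which encodes the high-affinity glucose transporter GLUT3, was lower in BRAF cells. It had 6.44 and 6.64 in BRAF lung CD11b+ cells and 8.11 and 8.14 in WT lung CD11b+ cells. The 2 WT arrays were the highest of all 18 arrays for this gene, and the BRAF arrays lay within the range of the other populations. Slc2a3 fell by 1.59 ± 0.30 on the log2 scale (SE, n = 2 each, 3.01-fold lower, limma's adjusted p = 0.0416). It was 1 of 32 members called, beside 0.338% of all genes. The call was lost on leaving out any of the 4 arrays (-1.69 to -1.49, adjusted p 0.0711 to 0.287) and under quantile normalization (adjusted p = 0.117) or median centring (adjusted p = 0.0574).

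Several other members lay lower in BRAF lung CD11b+ cells without passing the test. Pfkfb3 had 8.04 and 7.97 in BRAF cells and 8.69 and 9.0 in WT cells (-0.84 ± 0.24, adjusted p = 0.227). Ddit4, a stress-induced inhibitor of mTOR, had 8.12 and 7.42 in BRAF cells and 8.37 and 8.82 in WT cells (-0.83 ± 0.34, adjusted p = 0.609). Slc16a3, the lactate exporter MCT4, had 8.58 and 8.06 in BRAF cells and 9.35 and 8.90 in WT cells (-0.81 ± 0.52, adjusted p = 0.968). Genotypes did not overlap for any of the 3. Hk1, the widely expressed hexokinase, differed by -0.43 ± 0.28, Slc2a1 by -0.73 ± 0.55 and Hk2 by -0.67 ± 0.50. In all, 12 members had every BRAF array below every WT array, beside 24.8% of all genes, and 2 had every BRAF array above, beside 21.6%. The phosphofructokinases Pfkl and Pfkp were among the 12 that lay below. The genotypes overlapped for Pkm (0.13 ± 0.42) and Ldha (-0.08 ± 0.52).

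The hypoxia targets of lung CD11b+ cells were split, 4 positive and 5 negative, with a median of -0.05. Vegfa differed by -0.25 ± 0.36, Epas1 by 0.58 ± 0.44 and Hif1a by -0.14 ± 0.24. Egln3 had 6.22 and 5.47 in BRAF cells and 5.63 and 5.68 in WT cells, close to the 30th percentile of these arrays (5.60 to 5.74), so that a difference at this level is poorly resolved (0.18 ± 0.34). Beside these values, 15 of 16 stress and immediate early genes had negative differences (median -1.14), with a mean level of 9.54 and 9.37 in BRAF cells and 10.56 and 10.40 in WT cells. Their part in the lower values of the members was not tested. All 3 B cell markers had negative differences too, with a mean level of 7.10 and 6.54 in BRAF cells and 8.62 and 7.89 in WT cells.

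**Figure D3:**
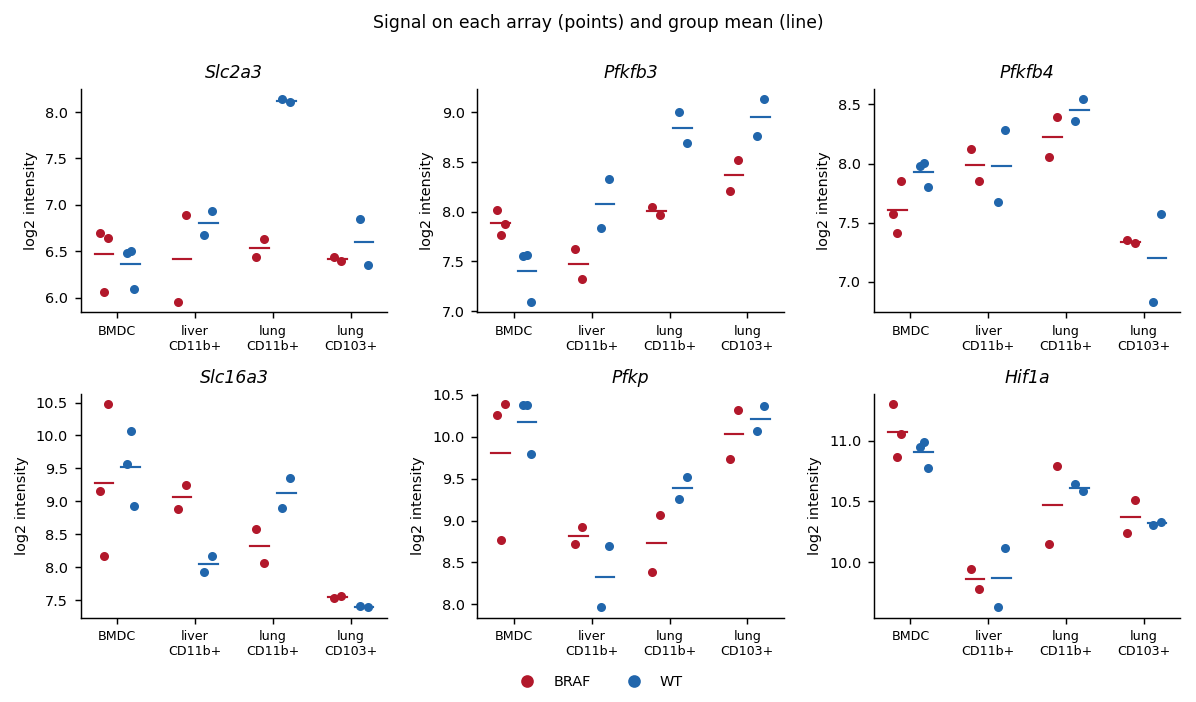
Log2 intensity on each array (points) and group mean (line) for 6 genes in the 4 populations, BRAF left of WT. Slc2a3 is near 8.1 on both WT lung CD11b+ arrays and below 7 on every other array. Pfkfb3 is lower in BRAF than in WT in all 3 organ populations and higher in BMDC. Pfkfb4 and Slc16a3 are lower in lung CD103+ than in lung CD11b+ cells.

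In lung CD103+ cells no member passed limma's test, beside 0.0846% of all genes, and 2 had an unadjusted p under 0.05, beside 4.26% of all genes. Pfkfb3 had 8.21 and 8.52 in BRAF cells and 8.77 and 9.14 in WT cells (-0.59 ± 0.24, adjusted p = 0.988). Epas1 had 8.44 and 7.28 in BRAF cells and 7.23 and 6.50 in WT cells (0.99 ± 0.44, adjusted p = 1). The 2 Epas1 values of BRAF cells were far apart. Kdm3a, a histone demethylase that uses oxygen, differed by -0.43 ± 0.26, Hk1 by -0.37 ± 0.28 and the mutase Pgam1 by 0.38 ± 0.36. Egln3 was at the 30th percentile here as well, with 5.57 and 5.50 in BRAF cells and 5.74 and 5.82 in WT cells (-0.24 ± 0.34). Slc2a1 differed by -0.11 ± 0.55, Hk2 by 0.01 ± 0.50, Pkm by 0.04 ± 0.42, Ldha by 0.24 ± 0.52, Hif1a by 0.06 ± 0.24 and Vegfa by -0.11 ± 0.36. Every BRAF array was above every WT array for 5 members, beside 9.16% of all genes, and below for 5, beside 19.3%. The members' median was 0.03, beside -0.08 over all genes. The mean of 6 macrophage markers was 10.39 and 9.03 in BRAF cells and 8.59 and 7.22 in WT cells, replicates 1 first in both, and all 6 differences were positive (median 2.01). Epas1 was likewise higher on replicate 1 of both genotypes, and the part of macrophage RNA in its difference was not tested.

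**Figure D4:**
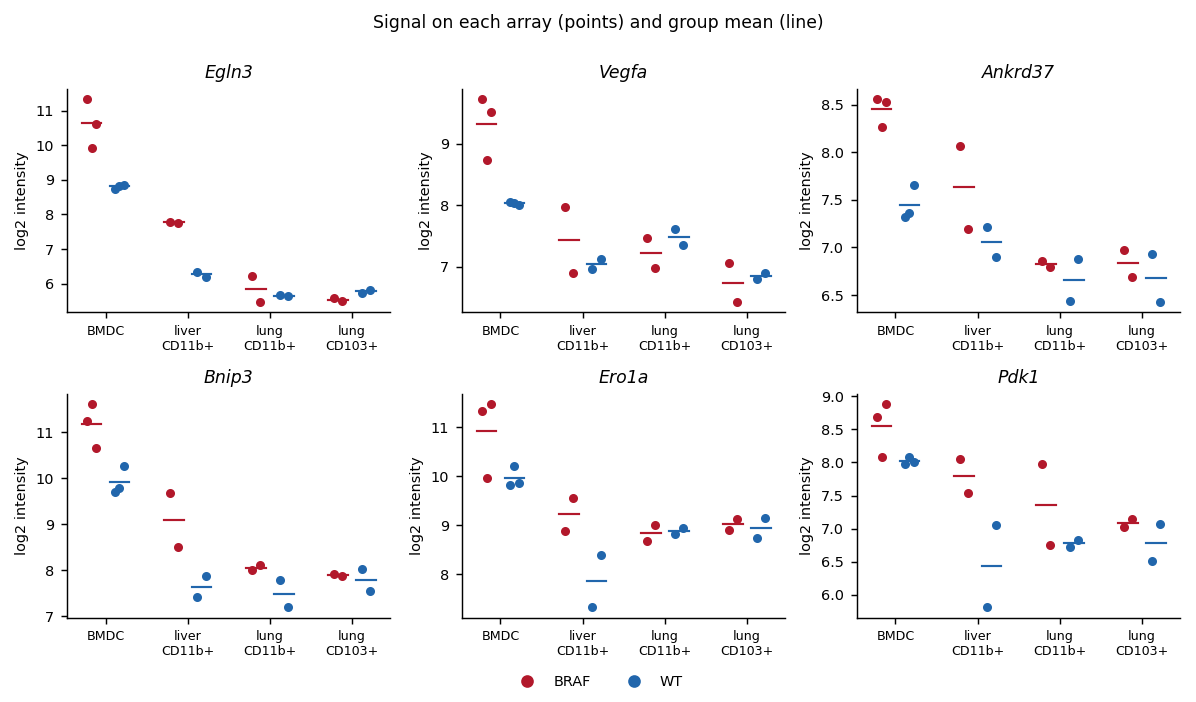
Log2 intensity on each array (points) and group mean (line) for the oxygen sensor Egln3, the hypoxia targets Vegfa, Ankrd37, Bnip3 and Ero1a, and the pyruvate dehydrogenase kinase Pdk1, BRAF left of WT. Egln3 separates the genotypes in BMDC and in liver, and lies below 6.3 on every lung array.

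Averaged over the 4 populations, 2 of 32 members passed the test, beside 0.989% of all genes. Egln3 differed by 0.82 ± 0.16 (adjusted p = 0.0261) and Bnip3 by 0.84 ± 0.18 (adjusted p = 0.0386), both higher in BRAF. For Egln3 the average joins 1.82 in BMDC and 1.51 in liver to 0.18 and -0.24 in the lung populations. For Bnip3 it joins 1.25, 1.44, 0.57 and 0.10, and with the lower probe sets it was 0.41 (adjusted p = 0.752). Without the 2 arrays of narrow spread the call of Bnip3 was also lost (0.73, adjusted p = 0.0733). Median centring lost the call of Egln3 (0.81, adjusted p = 0.0512). Quantile normalization (0.86, adjusted p = 0.0728) and the mean of the probe sets (0.63, adjusted p = 0.105) lost that of Bnip3. Ero1a, not called with the main settings, passed limma's test under quantile normalization (0.66, adjusted p = 0.0488). It also passed without BRAF BMDC replicate 2 (0.71, adjusted p = 0.0315). On leaving out each array in turn, the call of Egln3 was lost for 7 of 18 arrays and that of Bnip3 for 13 of 18. Over all 18, the mean ran from 0.72 to 0.91 for Egln3 (adjusted p 0.00214 to 0.0826) and from 0.69 to 0.99 for Bnip3 (adjusted p 0.00857 to 0.123). Egln3 was lost without WT BMDC replicates 1 or 2, WT liver replicate 1, either WT lung CD11b+ array, or replicate 1 of BRAF lung CD11b+ or CD103+ cells. Bnip3 was kept without WT BMDC replicate 3, WT lung CD103+ replicate 1, BRAF BMDC replicates 2 or 3, or BRAF liver replicate 3. Next by p were Slc2a3 (-0.51 ± 0.14, adjusted p = 0.133), Ankrd37 (0.47 ± 0.14, adjusted p = 0.141) and Pdk1 (0.69 ± 0.20, adjusted p = 0.145).

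Whether the genotype effect differed between populations was tested directly. No member passed limma's F test over the 4 effects, beside 0.124% of all genes, and 5 had an unadjusted p under 0.05, beside 9.1% of all genes. Egln3 had the smallest p (F = 10.15, adjusted p = 0.159), followed by Pfkfb3 (F = 7.83, adjusted p = 0.255), Slc2a3 (F = 6.75, adjusted p = 0.316) and Vegfa (F = 4.99, adjusted p = 0.416). Egln3 passed without BRAF BMDC replicate 2 (F = 22.45, adjusted p = 0.0207) and, with all arrays, under quantile normalization (F = 18.29, adjusted p = 0.0325, beside 0.189% of all genes). With array weights Egln3, Pfkfb3, Slc2a3 and Vegfa passed (adjusted p 0.00168 to 0.0135), beside 1.62% of all genes. The effect of Egln3 in BMDC exceeded that in lung CD103+ cells by 2.06 ± 0.43 (adjusted p = 0.156). Pfkfb3 had a positive difference in BMDC and negative ones in the 3 organ populations, and its effect in BMDC exceeded that in lung CD11b+ cells by 1.32 ± 0.31 (adjusted p = 0.185).

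Over both genotypes, 26 of 32 members differed between BMDC and the mean of the 3 organ populations, 24 higher and 2 lower in BMDC, beside 18.8% of all genes (11.6% higher and 7.11% lower). The members' median was 0.89, beside 0.03 over all genes. Culture, age of the mice and organ cannot be told apart in this comparison. By role, 8 of 10 glycolytic enzymes and regulators rose and 1 fell, all 3 genes of pyruvate and lactate handling rose, and 7 of 9 hypoxia targets rose and 1 fell. Of 5 genes of oxygen sensing 3 rose, and of 5 genes of hexose transport and phosphorylation 3 rose.

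Egln3 showed the largest difference of the members, 3.57 ± 0.17 (11.9-fold, adjusted p = 3.13e-09), with means of 9.72 in BMDC and 6.14 in the organ populations. Every BMDC array lay above every organ array. The same held for Bnip3 with its higher probe set (2.55 ± 0.19), Pgk1, the phosphoglycerate kinase (1.82 ± 0.16), Ero1a (1.65 ± 0.22) and Vegfa (1.55 ± 0.18). The share of all genes without overlap was not computed for this comparison. With the lower probe set Bnip3 differed by 1.60, and BRAF BMDC replicate 2 (8.03) lay below BRAF liver replicate 2 (8.38). Aldoc rose by 2.04 ± 0.37, although its BMDC arrays spread from 7.32 to 10.86. Pgam1 (1.45 ± 0.18), the isomerase Tpi1 (1.44 ± 0.25), Slc2a1 (1.29 ± 0.28), Pdk1 (1.25 ± 0.21), Slc16a3 (1.15 ± 0.26) and Ldha (1.12 ± 0.26) were all higher in BMDC. So were the stress gene Ndrg1 (1.34 ± 0.24), the aldolase Aldoa (1.08 ± 0.20), Ankrd37 (1.00 ± 0.14), the collagen hydroxylase subunit P4ha1 (0.92 ± 0.18), Pkm (0.81 ± 0.21) and Egln1 (0.77 ± 0.15). The hexokinases Hk3 (0.84 ± 0.20) and Hk1 (0.54 ± 0.14) and the phosphofructokinases Pfkl (0.85 ± 0.22) and Pfkp (0.74 ± 0.22) also rose, as did the mitophagy receptor Bnip3l (0.49 ± 0.15). On leaving out each array in turn, 24 to 27 members were called. The call of Bnip3l did not survive 11 of these 18 omissions (highest adjusted p = 0.101), nor that of Pfkp 8 of them (highest adjusted p = 0.0996), while the other 24 calls were kept. With WT arrays alone in the contrast 22 members were called, beside 15.9% of all genes. Bnip3l (0.56, adjusted p = 0.101), Pfkp (0.87, 0.0797), Pfkl (0.88, 0.0653), Hk3 (0.62, 0.161) and Hk1 (0.39, 0.206) then lost their calls. Vegfa (0.91), Ankrd37 (0.65) and Pfkfb3 (-1.23) kept theirs at sizes over 1.5 times apart from those with both genotypes. Hif1a rose by 0.74 ± 0.12 (adjusted p = 0.000473), with means of 10.99 in BMDC and 10.25 in the organs.

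The genes that fell in BMDC were Pfkfb3 (-0.64 ± 0.12, adjusted p = 0.0015) and Ddit4 (-0.70 ± 0.17, adjusted p = 0.00953). Slc2a3 (-0.40 ± 0.15, adjusted p = 0.0773), Epas1 (-0.30 ± 0.22), Hk2 (-0.18 ± 0.25), Pfkfb4 (-0.09 ± 0.13), Arnt (0.01 ± 0.17) and Kdm3a (0.16 ± 0.13) did not pass. Beside these differences, 9 of 14 proliferation genes were called higher in BMDC, and 12 of 16 stress and immediate early genes were called lower. The part of either group in the members' differences was not tested.

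**Figure D5:**
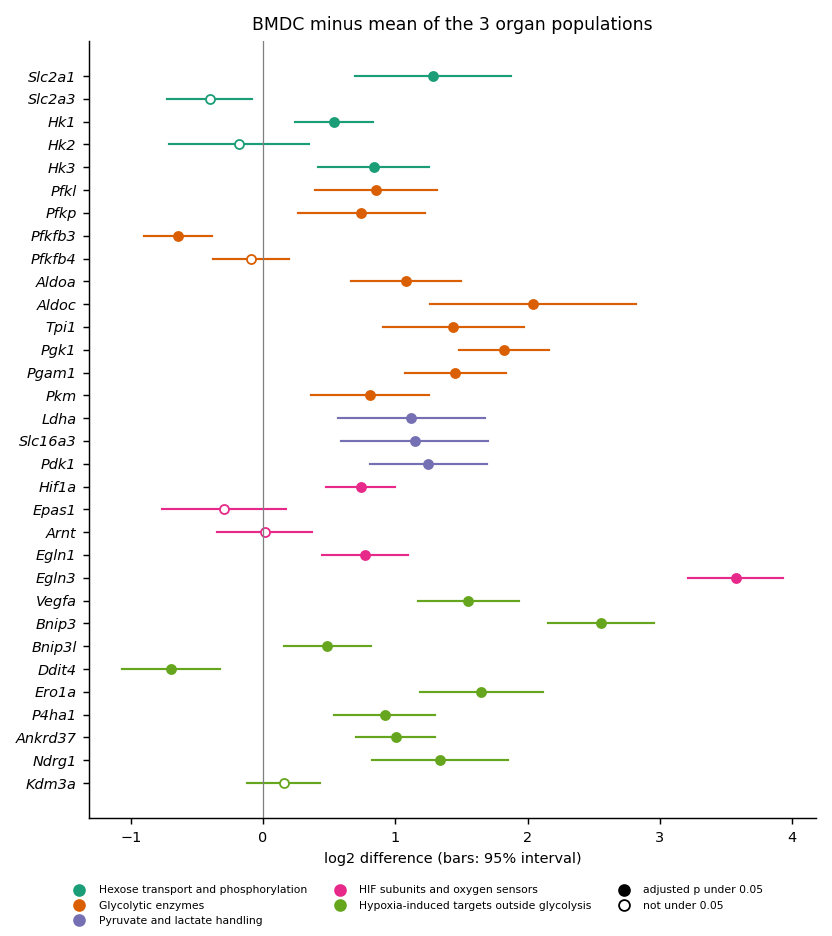
Log2 difference, BMDC minus the mean of the 3 organ populations over both genotypes, with 95% intervals, for the 32 genes coloured by role. Filled points passed the test. Egln3 lies at 3.57 and Bnip3 at 2.55, and Pfkfb3 and Ddit4 lie below 0.

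Between the 2 lung populations, 2 of 32 members differed, both lower in CD103+ than in CD11b+ cells, beside 5.64% of all genes. Pfkfb4, a further kinase and phosphatase of fructose-2,6-bisphosphate, averaged 7.27 in lung CD103+ and 8.34 in lung CD11b+ cells. It fell by 1.07 ± 0.19 (adjusted p = 0.00247), and the arrays of the populations did not overlap. Slc2a3 averaged 6.51 in lung CD103+ and 7.33 in lung CD11b+ cells (-0.82 ± 0.21, adjusted p = 0.0323), where the WT lung CD11b+ arrays described above carried the difference. In WT arrays alone it was -1.52 (adjusted p = 0.00792). The call of Slc2a3 was lost without any 1 of these 8 lung arrays except WT CD103+ replicate 1 (-0.95 to -0.70, adjusted p 0.0316 to 0.158). The labels do not say whether lung arrays with the same genotype and number share an animal, so the fit was repeated with genotype and number as a block. In it 5 members were called, beside 6.83% of all genes in that fit. Pfkfb4 remained (adjusted p = 0.0153), Slc16a3 (-1.25 ± 0.23, adjusted p = 0.0179), Vegfa (-0.56 ± 0.12, adjusted p = 0.0369) and Ddit4 (-0.75 ± 0.18, adjusted p = 0.0490) were lower in CD103+ cells, and the phosphofructokinase Pfkp was higher (1.06 ± 0.16, adjusted p = 0.00978). Slc2a3 was lost (adjusted p = 0.163). Markers of macrophages were lower in CD103+ cells beside them, 4 of 6 called, and their part was not tested.

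Between liver and lung CD11b+ cells, 1 of 32 members differed, beside 2.12% of all genes. Egln3 was higher in liver, with means of 7.02 in liver and 5.75 in lung (1.28 ± 0.24, adjusted p = 0.0138). The BRAF liver arrays carried much of it. In WT arrays alone the difference was 0.62 (adjusted p = 0.256). The call was also lost without WT liver replicate 3, WT lung CD11b+ replicate 1 or BRAF lung CD11b+ replicate 2 (1.09 to 1.46 over all 8 arrays left out in turn, adjusted p 0.0138 to 0.0687). Hif1a averaged 9.87 in liver and 10.54 in lung CD11b+ cells, with no overlap of the arrays (-0.68 ± 0.17, adjusted p = 0.0562).

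Other genes of these pathways, from further lists, changed in few cases by genotype. Of 37 other hypoxia targets tested, Trib3, a pseudokinase of the integrated stress response, was called in BMDC (0.84 ± 0.16, adjusted p = 0.0230; means 7.30 in BRAF and 6.46 in WT). In a list of 12 MYC and amino acid stress regulators, which also holds Trib3, Chac1, a glutathione-degrading enzyme induced by ATF4, was the second gene called in BMDC (1.18 ± 0.23, adjusted p = 0.0331; means 8.31 in BRAF and 7.12 in WT). In lung CD11b+ cells Angptl4, an inhibitor of lipoprotein lipase, rose by 1.32 ± 0.21 (adjusted p = 0.0123; means 7.52 in BRAF and 6.20 in WT). Its effect differed between populations (limma's F test, adjusted p = 0.0420). Eno3, an enolase, fell by 1.36 ± 0.23 in the same cells (adjusted p = 0.0215; means 8.55 in BRAF and 9.91 in WT). No pentose phosphate gene was called in any genotype comparison, although all 8 had negative differences in BMDC (median -0.49).

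Between BMDC and the organ populations, the other lists moved less evenly than the members. The counts here are of called genes, beside 11.6% of all genes tested called higher in BMDC and 7.11% called lower. Of 22 other glycolysis genes 4 rose and 1 fell. Pgm1, a phosphoglucomutase, rose by 1.24 ± 0.21 (adjusted p = 0.000668), and Eno3 fell by 0.95 ± 0.12 (adjusted p = 3.57e-05). Of 37 other hypoxia targets 8 rose and 1 fell. Pgf, the placental growth factor, rose by 1.46 ± 0.14 (adjusted p = 2.63e-06), and the chemokine receptor Cxcr4 fell by 1.82 ± 0.16 (adjusted p = 1.28e-06). Of 11 genes of glycogen metabolism 7 rose, led by the phosphorylase Pygl (2.09 ± 0.18, adjusted p = 9.61e-07). None of 8 pentose phosphate genes was called there, with a median of 0.29. The median was 0.15 for the other glycolysis genes and 0.18 for the other hypoxia targets, beside 0.89 for the 32 members.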

How the data were processed

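RNA from 18 samples in 8 groups was measured on 1-colour gene arrays. Trizol extraction of total RNA and biotin labelling are recorded per the labels' protocols. The deposited files hold array intensity, linear, from 4.90 to 20362. No source used here says how the authors normalized the intensity. The intensities were turned into log2 without a constant or further scaling. With 2 or 3 arrays a group, precision is limited.

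Of 24922 probe sets, 21425 mapped to a single gene, 1399 mapped to several, and for 2098 no gene was listed. Genes entered the tests if at least 2 arrays showed them above the 30th percentile of that array. Group means over all 18 arrays were fitted in limma 3.58.1 (R 4.3.3; 10 residual degrees of freedom). P-values were adjusted by Benjamini-Hochberg across all 15365 tested genes, and an adjusted p under 0.05 was a call. Errors after a difference are SE. Tables and plots were made with Python 3.11.15. The fit was tested on simulated data.

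The members and lists were chosen with earlier results of these data known. Members named with values were every called member, the 5 of smallest p in each genotype contrast and in their mean (4 in the test between populations), the 5 largest called differences each way between populations, and 10 fixed genes, of which Gapdh was not analysed. Further members are given where a role or a figure is described, chosen after their values were seen. Of the other lists, a selection of the 3 called genes of smallest p in each is given.

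Gene by gene, the deviations of lung CD103+ and CD11b+ arrays with the same genotype and number had a correlation, r, of 0.159 (WT) and 0.220 (BRAF). The 2 pairs of a genotype necessarily share their r. Both values lie within the range of the unlike-numbered BMDC arrays given next, so they cannot show whether the lung numbers pair the samples. The main fit used no block, and the block was an alternative. BMDC arrays of the same number had r = 0.469, -0.231 and -0.399, and those of unlike numbers ran from -0.398 to 0.430. The liver arrays numbered 3 had r = -0.204. Alternatives covered quantile normalization, median centring, the filter, the probe set, robust eBayes with a trend, array weighting, fits of the compared groups alone, blocks and leaving out arrays.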

Additional observations from a re-analysis of the deposited data

How the results depend on the processing

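The counts of members called depended on the setting. In BMDC 1 member was called, against 2 under quantile normalization, 14 with array weights, 3 without the 2 arrays of narrowest spread (chosen after seeing the data), and 0 when only BMDC arrays were fitted or with the replicate block, where Egln3 had adjusted p = 0.104 and 0.159. Over all genes the share called in BMDC was 0.521%, against 0.586%, 10.8%, 0.657%, 0.286% and 0.0911% in these 5 fits in the same order, so the rise with array weights was not limited to the members. Whether the BMDC numbers pair the samples is not known. Leaving out each array in turn gave 1 to 3. In liver the count was 1 under quantile normalization (0.43% of all genes), and 0 for each array left out. In lung CD11b+ cells it was 0 under quantile normalization, median centring and each array left out, and 2 with array weights (2.4% of all genes). In lung CD103+ cells it stayed 0 for each array left out. For the mean of 4 populations it was 1 under median centring, with the mean of the probe sets and with the lower probe sets (chosen after seeing the data), and 0 to 4 on leaving out arrays. For the test between populations it was 1 under quantile normalization and without the 2 narrow arrays, 4 with array weights (1.62% of all genes), and 0 to 1 on leaving out arrays. Between lung populations it was 4 with array weights, with only the groups compared and without the 2 narrow arrays, 5 with the replicate block (8.43%, 5.83%, 8.83% and 6.83% of all genes in that order), and 1 to 2 on leaving out arrays. Between liver and lung CD11b+ cells it was 3 under quantile normalization (1.88% of all genes) and 0 to 3 on leaving out arrays. Between BMDC and organs it was 24 to 27 on leaving out arrays, 22 with WT arrays alone in the contrast and 28 with array weights (42.1% of all genes). The cause of these moves was not tested.

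The differences by genotype that changed sign were of genes not called with the main settings. In BMDC, Slc2a1 was 0.057 under quantile normalization, 0.48 with array weights, where it passed the test (adjusted p = 0.0319), and 0.63 without the 2 narrow arrays, Pkm was 0.13 without them, and Hk2 was -0.034 under median centring. In liver, Hif1a was 0.056 under median centring. On leaving out each array in turn, the BMDC ranges were -0.55 to 0.63 for Slc2a1, -0.25 to 0.48 for Hk2 and -0.72 to 0.13 for Pkm. In liver they were -0.73 to 0.52 for Hk2, -0.25 to 0.23 for Hif1a and -0.15 to 0.93 for Vegfa. In lung CD11b+ cells they were -0.38 to 0.23 for Ldha, -0.46 to 0.18 for Hif1a, -0.11 to 1.27 for Epas1 and -0.19 to 0.56 for Egln3. In lung CD103+ cells they were -0.37 to 0.15 for Slc2a1, -0.51 to 0.53 for Hk2, -0.21 to 0.30 for Pkm, -0.018 to 0.50 for Ldha, -0.081 to 0.19 for Hif1a and -0.43 to 0.21 for Vegfa.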
